A study of Mus musculus with 12 samples.

Results

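The genes that carry the first steps of the Gs-cAMP pathway were examined in cultured mouse follicular B cells. The 10 genes were chosen by symbol as rows of the count tables. They were *Gnas* (the G protein alpha subunit Gs), the adenylyl cyclases *Adcy3*, *Adcy7* and *Adcy9*, the regulatory subunits *Prkar1a*, *Prkar2a* and *Prkar2b* and the catalytic subunits *Prkaca* and *Prkacb* of cAMP-dependent protein kinase (PKA), and the A-kinase anchoring protein *Akap13*. All 10 had a row in both tables, out of 12837 genes in both, and all 10 passed the filter on low counts in every comparison. B cells were sorted as CD23+ CD21/35- cells from spleens of male mice, with 3 adult mice for each genotype. WT mice were Gpr174+/Y. KO mice were Gpr174-/Y, carried the deletion in the germline and so in all cells, and had the red fluorescent protein tdTomato in place of the coding exon. Cells of each genotype were frozen at once (0 h) or kept for 4 h in RPMI medium with serum but without a stimulus, and each genotype and time had 3 libraries. Each genotype had 3 mice for 6 libraries, and the labels repeat the replicate numbers at both times. The 0 h and 4 h libraries therefore likely share mice, which the labels do not state. The culture and interaction fits treat the 12 libraries as independent.

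Gs-coupled receptors such as GPR174 pass their signal to the Gs alpha subunit, which activates adenylyl cyclases in the plasma membrane. The cyclic AMP that these enzymes make binds the regulatory subunits of PKA and frees the catalytic subunits, which phosphorylate targets that include CREB, a factor that binds the cAMP response element (CRE) in promoters. Anchoring proteins hold PKA at particular places in the cell. In lymphocytes a rise in cyclic AMP is best known for dampening antigen receptor signaling.

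Promoter sequences were searched for the CRE because the pathway under study acts through it. The RefSeq windows (GRCm38.p6) run from 250 bases before to 50 bases after each annotated start, and the 10 genes have 25 of them. The palindromic CRE, TGACGTCA, was found in 2 of the 25 windows, against 1.79% of 32851 windows and 2.03% of 27025 genes genome-wide. Both hits were the same 8 bases of *Prkar1a*, which has several annotated starts, at -49 from one start and 38 bases downstream of another. The shorter core, TGACG or CGTCA on the other strand, is contained in the palindrome. It was found in 11 of the 25 windows, from 7 of the 10 genes, against 20.8% of all windows and 23.0% of all genes. These shares are not like for like, since the 10 genes have more windows per gene than all genes (25 for 10 against 32851 for 27025). Overlapping windows of *Gnas* and of *Prkar1a* also hold the same sites and were each counted. The G and C share of the 25 windows ran from 38% to 81.7% and was not compared with other windows. The site of *Prkar1a* and the core sites of *Adcy7* and *Gnas* are printed with the motif in capitals, in the direction of transcription, since *Prkar1a* and *Adcy7* were the 2 genes that differed between genotypes and *Gnas* encodes Gs itself.
Prkar1a, palindrome, chr11:109650889-109650918, plus strand: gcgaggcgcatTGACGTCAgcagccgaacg
Adcy7, core, chr8:88282951-88282980, plus strand: gtgatcatagagcCGTCAggggggtggggc
Gnas, core, chr2:174327698-174327727, plus strand: gaagaggttggggCGTCAtcaggctggtta
Gnas, second core, chr2:174329777-174329806, plus strand: tcgtgtgaggggtCGTCAccaccgcggggc
The *Prkar1a* and *Adcy7* sites lie in an intron or upstream of the annotated GENCODE transcripts, depending on the transcript. The *Gnas* sites are also within noncoding exon sequence of some transcripts. *Prkaca*, *Prkacb*, *Prkar2a* and *Adcy9* had core sites as well, and none was found in the windows of *Adcy3*, *Prkar2b* or *Akap13*. A match is a match of letters in these windows, and binding was not measured.

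Library totals ran from 6098941 to 11618787 counts. The targeted gene *Gpr174* was counted at 149.4 to 156.8 CPM (reads of a gene scaled to a common library size with TMM factors) in WT and 73.35 to 76.67 CPM in KO at 0 h, and at 152.5 to 168.9 CPM in WT and 104.7 to 118.2 CPM in KO at 4 h. WT and KO did not overlap at either time. The tables give 1 count for the gene, and which part of it the reads in KO came from was not tested. Of 8 follicular B cell markers 6 had rows and summed to 6918 to 7702 CPM at 0 h, 5194 to 5418 CPM in WT at 4 h and 6072 to 6261 CPM in KO at 4 h. *Ighd* and *Ighm* had no row. T cell markers summed to at most 12.5 CPM. Erythroid markers (4 of 9 with a row) summed to 883.1 to 1344 CPM in WT and 780.6 to 2448 CPM in KO at 0 h. At 4 h they summed to 893.4 to 1259 CPM in WT and 670.4 to 1747 CPM in KO. Macrophage or monocyte markers summed to 82.83 to 101.1 CPM at 0 h and 30.63 to 54.57 CPM at 4 h, where the 3 complement C1q genes had no row. Proliferation markers were higher in KO at 0 h (357.9 to 514.1 against 142.5 to 228.2 CPM) and overlapped narrowly at 4 h (160.7 to 288.2 against 116.2 to 166 CPM). Plasma cell markers (4 of 5 with a row) summed to 469.5 to 520.1 CPM in WT at 4 h, above KO at 4 h (396.9 to 430.5 CPM) and above every 0 h library (365 to 417.2 CPM), so they were highest in the same group as *Prkar1a*. The follicular, macrophage, proliferation and plasma cell sums moved with culture or genotype, while the T cell and erythroid sums overlapped across the groups. The part of these markers in the results was not tested. In bulk RNA a change in the share of cells of a type and a change in RNA per cell cannot be told apart. The 0 h and 4 h libraries are in separate tables, so any difference in their handling cannot be told apart from culture.

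Levels were first compared between genes per length, as CPM per kb of the principal transcript. *Gnas* was at 145.9 ± 5.26 CPM per kb (SD, n = 3) in WT at 0 h, *Akap13* at 115.6 ± 3.84 and *Prkar1a* at 93.0 ± 4.31. With all exon bases of a gene as its length the order of these 3 turned, with *Gnas* at 50.9, *Akap13* at 69.6 and *Prkar1a* at 75.6 CPM per kb, so the order among them depends on the length used. On either length those 3 genes stood above *Adcy7* (41.3 ± 2.86), *Prkacb* (35.8 ± 0.491) and *Prkaca* (17.8 ± 1.74), whose values are given for the principal transcript. *Prkar2a*, *Adcy3*, *Prkar2b* and *Adcy9* were each below 3 CPM per kb in every library. The 10 genes thus spanned a wide range, with 1 cyclase and 1 regulatory subunit far above the others of their kind. *Adcy7* made up 95.7% ± 0.456 of the summed level of the 3 cyclases in WT at 0 h, and its lowest group mean was 94.6% ± 0.0905, in WT at 4 h. *Prkar1a* made up 96.8% to 97.9% of the summed regulatory subunits as group means. The share of *Prkacb* among the 2 catalytic subunits depended on the length used, at 66.8% in WT at 0 h with the principal transcript and 52.2% with all exon bases of the gene.

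**Figure D1:**
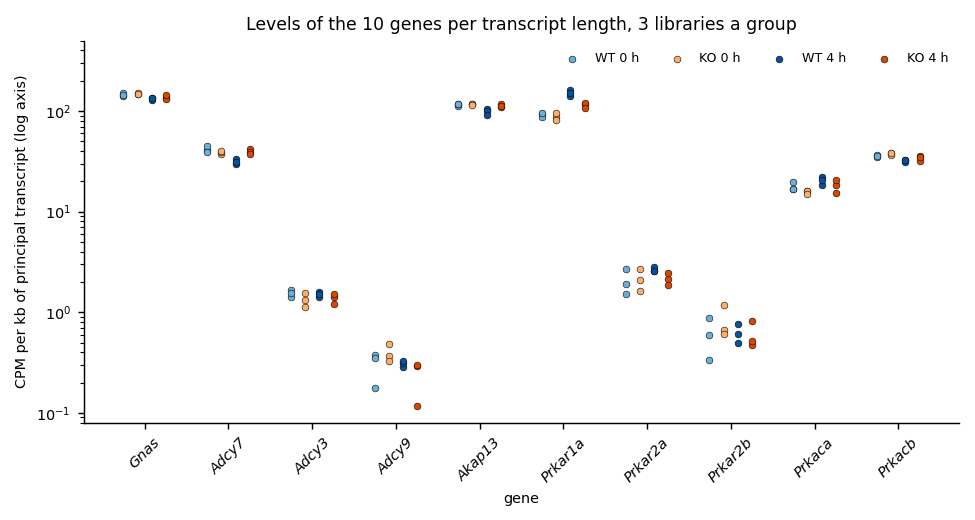
Level of the 10 genes per transcript length (CPM per kb of the principal transcript, log axis), with 1 point for each of the 3 libraries of a group. *Gnas*, *Akap13* and *Prkar1a* are highest, with group means from 88.6 to 152.8 CPM per kb, and *Adcy9* and *Prkar2b* are lowest.

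Of the 7 other adenylyl cyclases *Adcy1*, *Adcy2*, *Adcy4* and *Adcy8* had no row in either table, which lists only genes with at least 10 counts summed over its 6 libraries. *Adcy5* and *Adcy6* had at most 16 counts in any library, and *Adcy10*, the soluble cyclase, had a row at 4 h only, with at most 4 counts. None of the 7 passed the filter. *Adcy7*, a cyclase prominent in blood cells, was therefore the only cyclase of the 10 counted above 10 CPM.

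The genotype comparison at 0 h asked whether these genes differed before culture. None of the 10 was called at an edgeR adjusted p under 0.05, and none had an unadjusted p under 0.05. DESeq2 also called none. Among all genes tested 0.987% were called, 0.502% higher in WT and 0.485% higher in KO, so 0 of 10 is near the background. The genes with many counts were measured closely. The WT level of *Gnas* was 97.2% of KO (91.1% to 104% at 2 standard errors), of *Adcy7* 106% (97.7% to 115%), of *Prkar1a* 104% (96.2% to 113%) and of *Akap13* 99.0% (93.5% to 105%). *Adcy9* and *Prkar2b*, with 9 to 33 counts a library at 0 h, allowed much wider intervals, such as 40.9% to 136% for *Adcy9*. *Prkaca* was higher and *Prkacb* lower in WT without overlap of the libraries, as for 18.1% of all genes, and neither passed the test (adjusted p = 0.524 and 0.540).

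At 4 h, 2 of the 10 genes were called, *Prkar1a* higher in WT and *Adcy7* higher in KO. Over all 11123 genes tested 10.9% were called, 5.22% higher in WT and 5.67% higher in KO, so 2 of 10 is close to the background. This comparison and the WT culture comparison share the WT 4 h libraries. The median absolute log2 fold change was 0.18 over the 10 genes and 0.14 over all genes tested. The libraries of the 2 genotypes did not overlap for 4 of the 10, *Prkar1a*, *Adcy7*, *Akap13* and *Prkar2a*, against 28.0% of all genes.

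**Figure D2:**
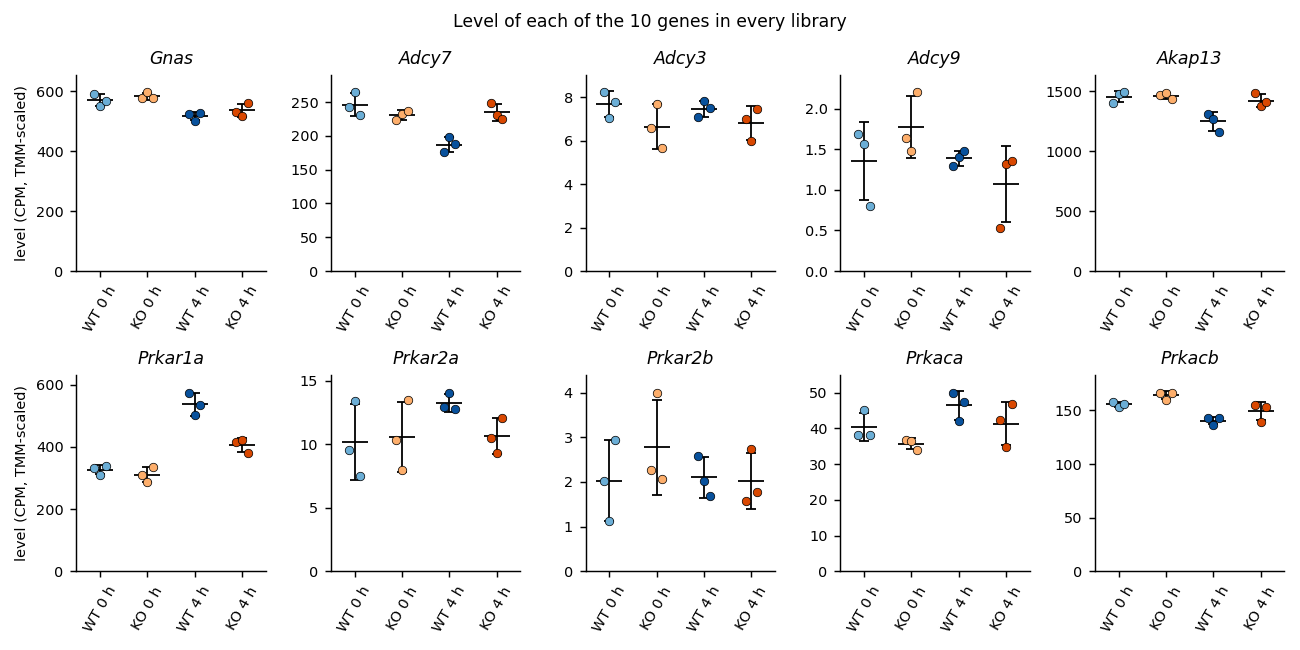
Level of each gene (CPM on TMM-scaled library sizes, axes from 0) in every library of the 4 groups, with the mean as a long bar and the SD as error bars (n = 3). *Prkar1a* is highest and *Adcy7* lowest in WT after 4 h, and for both the KO 4 h libraries lie apart from the WT 4 h libraries.

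*Gnas*, which encodes the Gs alpha subunit, was read at 590.4, 549.6 and 568.0 CPM in WT and 575.3, 595.5 and 576.4 CPM in KO at 0 h. At 4 h it was read at 524.5, 499.9 and 525.5 CPM in WT and 529.6, 516.2 and 560.4 CPM in KO. Both genotypes were lower after culture with no overlap with their 0 h libraries, and WT and KO overlapped at each time. The culture change was -0.14 ± 0.05 (log2, SE) in WT (edgeR adjusted p = 0.0389) and -0.12 ± 0.05 in KO (adjusted p = 0.0902), and the difference of the changes was -0.02 ± 0.07. The mean level was highest in KO 0 h, followed by WT 0 h, then by KO 4 h and last by WT 4 h, and each neighbour overlapped the next. The WT call was lost with library totals in place of TMM (adjusted p = 0.663), with only the WT libraries in the fit (0.0867), and without WT replicate 1 of 0 h (0.138), WT replicate 3 of 0 h (0.0780), KO replicate 1 of 0 h (0.0584), WT replicate 2 of 4 h (0.122) or WT replicate 3 of 4 h (0.0565). *Gnas* shares 988 exon bases with *Nespas* and 1469 with *Gm20721* on the opposite strand, and strand use in the counting was not stated. *Nespas* had at most 7 counts in a library and *Gm20721* had no row.

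*Adcy7* was read at 242.8, 264.4 and 230.8 CPM in WT and 223.0, 232.8 and 236.7 CPM in KO at 0 h. At 4 h the WT libraries held 175.6, 198.8 and 187.3 CPM and the KO libraries 248.1, 231.0 and 225.1 CPM. The 3 WT 4 h libraries lay below all 9 other libraries, which overlapped each other across groups. At 4 h the level in KO was 1.25-fold that in WT (log2 WT over KO -0.33 ± 0.06, edgeR adjusted p = 0.00327). The level fell in WT culture by 0.39 ± 0.06 on the log2 scale (adjusted p = 4.83e-05), while the KO change was 0.02 ± 0.06 (adjusted p = 0.832). The difference between the changes was itself called, at -0.42 ± 0.09 (adjusted p = 0.00458). All 3 calls were kept in every alternative, and the adjusted p at 4 h ranged from 0.000236 to 0.0281.

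*Adcy3*, a cyclase first known from olfactory neurons, was read at 5.638 to 8.216 CPM over the 12 libraries, and *Adcy9*, a widely expressed cyclase, at 0.5264 to 2.200 CPM from 4 to 16 counts. Neither was called in any comparison. All neighbours in the order of *Adcy3* groups overlapped. For *Adcy9* the KO 0 h libraries were just above those of WT 4 h, and the other neighbours overlapped. *Adcy3* shares 1380 exon bases with *Cenpo* on the opposite strand, which was counted at 28.20 to 39.38 CPM, several times the level of *Adcy3*, so part of the *Adcy3* count may belong to either gene.

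*Prkar1a*, the type I regulatory subunit that holds the catalytic subunit inactive until cyclic AMP binds, had the largest called change of the 10 at 4 h and in WT culture. It was read at 331.3, 309.9 and 339.2 CPM in WT and 310.1, 286.8 and 336.8 CPM in KO at 0 h. At 4 h it was read at 574.4, 501.2 and 534.3 CPM in WT and 416.1, 421.8 and 379.4 CPM in KO. The 0 h groups overlapped, all KO 4 h libraries were above them, and all WT 4 h libraries were above those of KO 4 h. The gene rose 1.64-fold in WT culture (log2 0.71 ± 0.07, edgeR adjusted p = 1.96e-08) and 1.3-fold in KO culture (0.38 ± 0.07, adjusted p = 0.000181). At 4 h the WT level was 132% of KO (121% to 145% at 2 standard errors, adjusted p = 0.000631). These 3 calls were kept in every alternative.

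The culture change of *Prkar1a* was larger in WT by 0.33 ± 0.09 on the log2 scale (edgeR adjusted p = 0.0338). This call was lost without any 1 of 7 libraries. Its adjusted p was 0.0975 without WT replicate 2 of 0 h, 0.0831 without KO replicate 1 of 0 h and 0.117 without KO replicate 3 of 0 h. It was 0.0677 without WT replicate 1 of 4 h, 0.0579 without WT replicate 3 of 4 h, 0.0520 without KO replicate 1 of 4 h and 0.110 without KO replicate 3 of 4 h. The estimate stayed between 0.27 and 0.35 in these 7 fits.

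The type II regulatory subunits are the forms that anchoring proteins bind most tightly. *Prkar2a* was read at 12.90, 14.06 and 12.75 CPM in WT and 10.53, 9.315 and 12.09 CPM in KO at 4 h. The 4 h libraries of the genotypes did not overlap, but the log2 fold change of 0.32 ± 0.16 had an edgeR adjusted p of 0.246. At 0 h the gene ranged from 7.497 to 13.48 CPM and the groups overlapped fully. In WT culture it was called in a single alternative, without WT replicate 2 of 0 h (0.64 ± 0.20, adjusted p = 0.0240, against 0.39 ± 0.21 and 0.158 with it). *Prkar2b* was read at 1.120 to 3.996 CPM from 10 to 33 counts, overlapped across all groups and was called in no comparison.

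Unlike *Prkar1a*, neither catalytic subunit was called in any comparison of the main fits. *Prkaca* was read at 38.27, 45.02 and 38.11 CPM in WT and 36.86, 36.41 and 33.96 CPM in KO at 0 h, and at 49.98, 42.04 and 47.42 CPM in WT and 42.24, 34.87 and 46.71 CPM in KO at 4 h. *Prkacb* was read at 157.5, 153.2 and 155.9 CPM in WT and 166.5, 160.0 and 166.2 CPM in KO at 0 h, and at 142.5, 136.4 and 142.8 CPM in WT and 155.0, 139.5 and 153.0 CPM in KO at 4 h. The mean of *Prkaca* was higher and that of *Prkacb* lower after culture in both genotypes, with log2 changes of 0.20 for *Prkaca* in each genotype, -0.15 for *Prkacb* in WT and -0.14 for *Prkacb* in KO. No change of either passed the test (edgeR adjusted p = 0.0571 to 0.196 in culture). With library totals in place of TMM *Prkaca* was called in WT culture (0.31, adjusted p = 0.0232) and KO culture (0.29, adjusted p = 0.0475), and that scaling moved the median of all genes up by 0.11 in WT and 0.09 in KO.

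The ratio of summed regulatory to summed catalytic subunit levels, per kb of the principal transcript, was 1.79 ± 0.116 in WT and 1.71 ± 0.138 in KO at 0 h (SD, n = 3). The catalytic sum holds *Prkaca* and *Prkacb* only. It leaves out *Prkx*, listed among the other PKA subunits, which had a mean of 37.87 CPM in WT at 0 h. At 4 h the ratio was 2.96 ± 0.0817 in WT and 2.27 ± 0.301 in KO. The WT 4 h libraries, from 2.89 to 3.05, lay above every other library, and the KO 4 h libraries, from 1.99 to 2.59, lay above the 0 h libraries, of which the highest was 1.88. Since *Prkar1a* is nearly all of the numerator this ratio restates its rise against the catalytic subunits. With all exon bases as length the group means were 2.29, 2.25, 3.65 and 2.89 in the same order. RNA levels are not protein levels, which were not measured.

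*Akap13*, which encodes an A-kinase anchoring protein, had the most counts of the 10. It was read at 1401, 1478 and 1491 CPM in WT and 1466, 1487 and 1437 CPM in KO at 0 h, and at 1313, 1270 and 1163 CPM in WT and 1487, 1375 and 1407 CPM in KO at 4 h. The WT 4 h libraries were below all others, and the other 3 groups overlapped each other. It fell in WT culture by 0.22 ± 0.05 on the log2 scale (edgeR adjusted p = 0.00211), and the KO change was -0.04 ± 0.05 (adjusted p = 0.641). Between genotypes at 4 h the log2 fold change of -0.19 ± 0.06 did not pass (adjusted p = 0.0639). The difference of the culture changes, -0.18 ± 0.07, did not pass either (adjusted p = 0.177), so a difference between genotypes in this fall was not shown. The 4 h comparison was called by DESeq2 (adjusted p = 0.0221), with library totals (0.0356), with all 4 groups in the fit (0.0194) and without WT replicate 1 of 4 h (0.0237). The WT culture call was lost with library totals (-0.12, adjusted p = 0.0857).

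In WT culture 4 of the 10 genes were called, with *Prkar1a* raised and *Adcy7*, *Akap13* and *Gnas* lowered. Over all 11563 genes tested 33.1% were called in WT culture, 15.1% raised and 18.0% lowered, so 4 of 10 is near the background. In KO culture 1 of the 10 was called, *Prkar1a*, against 23.3% of all genes, of which 10.3% were raised and 13.0% lowered. The interaction was called for 2 of the 10 and for 6.39% of all genes, of which 2.45% had the higher change in WT and 3.94% in KO. The median absolute log2 value of the interaction was 0.26 over the 10 genes and 0.17 over all genes. Above that median of the 10 stood the called *Adcy7* and *Prkar1a* and 3 uncalled genes with wide standard errors. The uncalled genes were *Adcy9* (0.80 ± 0.63), *Prkar2b* (0.43 ± 0.57) and *Prkar2a* (0.39 ± 0.30), so the higher median was not read as a result.

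**Figure D3:**
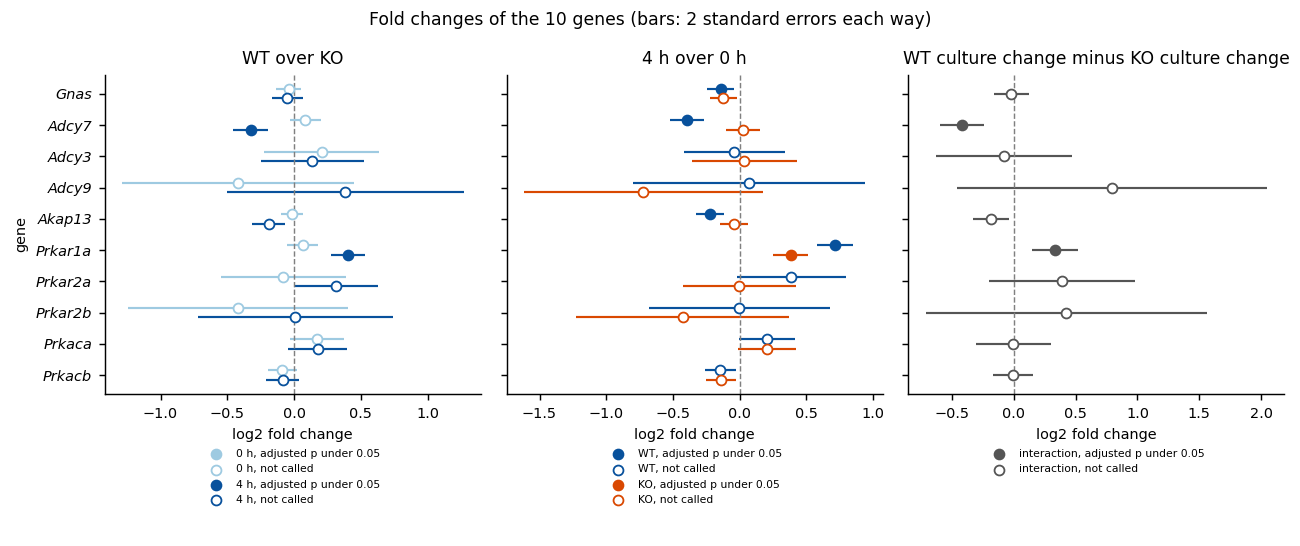
Log2 fold changes of the 10 genes for WT over KO at 0 h and 4 h, for 4 h over 0 h in each genotype, and for the culture change of WT less that of KO. Bars run 2 standard errors each way and filled points have an edgeR adjusted p under 0.05, which in the right panel holds for *Adcy7* (-0.42) and *Prkar1a* (0.33).

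The rest of the pathway was followed in 69 further genes, of which 53 had a row and 44 were tested (43 at 4 h). They are the other G protein subunits and their chaperones, the other cyclases, the other PKA subunits and inhibitors, the other anchoring proteins, the cAMP-activated exchange factors EPAC1 and EPAC2, and the receptor kinases and arrestins. None of the 44 was called between genotypes at 0 h by edgeR or DESeq2, and 5 had an unadjusted p under 0.05. At 4 h 5 of 43 were called, 2 higher in WT and 3 higher in KO, which is near the background of all genes given above. In culture 18 of 44 were called in WT, 3 raised and 15 lowered, and 15 of 44 in KO, 1 raised and 14 lowered. The share of all genes lowered was given above as 18.0% in WT and 13.0% in KO, and the share raised as 15.1% and 10.3%. The median log2 change in WT culture was -0.18 over these genes and 0.01 over all genes tested, and -0.13 and 0.00 in KO culture. The interaction was called for 4 of 44, near the 6.39% of all genes.

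The exchange factors respond to cyclic AMP without PKA. *Rapgef4* (EPAC2) was read at 87.71, 85.79 and 59.96 CPM in WT and 131.3, 125.6 and 127.0 CPM in KO at 4 h, with no overlap. The 0 h groups overlapped, at 89.34 to 130 CPM in WT and 93.51 to 130.8 CPM in KO. The 4 h log2 fold change was -0.73 ± 0.11 (edgeR adjusted p = 0.000284), kept in all 12 alternatives. *Rapgef3* (EPAC1) had few reads, at 2.096, 1.250 and 1.581 CPM in WT and 3.685, 3.941 and 4.210 CPM in KO at 4 h from 8 to 33 counts, a log2 fold change of -1.26 ± 0.31 (adjusted p = 0.0153). Its call was lost without WT replicate 2 of 4 h (0.0504), WT replicate 3 of 4 h (0.0676), KO replicate 2 of 4 h (0.0557) or KO replicate 3 of 4 h (0.0605).

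In WT culture *Rapgef3* fell by 1.93 ± 0.38 and *Rapgef4* by 0.47 ± 0.14 on the log2 scale (edgeR adjusted p = 0.000436 and 0.0111), and neither was called in KO culture. The *Rapgef3* culture call was kept in all 18 alternatives. That of *Rapgef4* was lost with DESeq2 (0.0547) and without WT replicate 1 of 0 h (0.0844) or WT replicate 3 of 4 h (0.0986). The differences of the culture changes were -1.91 ± 0.52 for *Rapgef3* (adjusted p = 0.0290) and -0.65 ± 0.19 for *Rapgef4* (adjusted p = 0.0427). Of the 17 alternatives 8 lost the *Rapgef3* interaction, those without WT replicate 2 of 0 h (0.0886), KO replicate 1 of 0 h (0.0868), KO replicate 3 of 0 h (0.0788), WT replicate 2 of 4 h (0.0677), WT replicate 3 of 4 h (0.0720), KO replicate 1 of 4 h (0.0523), KO replicate 2 of 4 h (0.0595) or KO replicate 3 of 4 h (0.0647). The *Rapgef4* interaction was lost in 9 of 17, with DESeq2 (0.173) and without WT replicate 1 of 0 h (0.114), WT replicate 2 of 0 h (0.0593), KO replicate 1 of 0 h (0.0890), KO replicate 3 of 0 h (0.126), WT replicate 3 of 4 h (0.131), KO replicate 1 of 4 h (0.0988), KO replicate 2 of 4 h (0.0726) or KO replicate 3 of 4 h (0.0785).

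Among the beta and gamma subunits, the partners of G alpha, *Gnb1* was read at 298.7, 262.4 and 270.5 CPM in WT and 220.2, 236.4 and 235.6 CPM in KO at 4 h. *Gng2* was read at 142.5, 131.3 and 124.9 CPM in WT and 161.9, 152.4 and 151.0 CPM in KO. The genotypes did not overlap for either gene, and they differed in opposite directions. The log2 fold changes were 0.26 ± 0.06 for *Gnb1* (edgeR adjusted p = 0.0138) and -0.23 ± 0.07 for *Gng2* (adjusted p = 0.0376). *Gnb1* was not called without KO replicate 1 of 4 h (0.0853). *Gng2* was not called without WT replicate 2 of 4 h (0.0599), WT replicate 3 of 4 h (0.171), KO replicate 1 of 4 h (0.161), KO replicate 2 of 4 h (0.0956) or KO replicate 3 of 4 h (0.0778). Their interactions were 0.32 ± 0.08 (adjusted p = 0.0197) and -0.34 ± 0.09 (adjusted p = 0.0204). The first was lost without KO replicate 2 of 0 h (0.0557) or KO replicate 1 of 4 h (0.0684), and the second without WT replicate 2 of 0 h (0.0587), KO replicate 1 of 0 h (0.0514), WT replicate 3 of 4 h (0.0694) or KO replicate 1 of 4 h (0.0691).

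*Ric8b*, a chaperone for Gs alpha, was read at 48.21, 50.63 and 50.58 CPM in WT and 41.19, 43.23 and 37.62 CPM in KO at 4 h. The groups did not overlap, with a log2 fold change of 0.29 ± 0.09 (edgeR adjusted p = 0.0421). This call was lost in 9 of 12 alternatives. Those were DESeq2 (0.0997), library totals (0.0685) and the replicate number as a block (0.0709). The others left out any of the 6 libraries of 4 h (0.0545 to 0.172). The block here joined WT and KO libraries of the same number, which are from different mice. In WT culture it rose by 0.36 ± 0.09 (adjusted p = 0.00370), kept in all 18 alternatives. The other raised genes in WT culture were the PKA inhibitor *Pkig* (0.37 ± 0.07) and *Gnb1* (0.19 ± 0.06), of which *Gnb1* was lost without WT replicate 1 of 4 h (adjusted p = 0.0917).

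Beside *Rapgef3*, the largest falls in WT culture were in the receptor kinase *Grk3* (listed as *Adrbk2*, by 1.06 ± 0.27 on the log2 scale) and the PKA inhibitor *Pkib* (by 0.98 ± 0.12). In KO culture *Grk3* fell by 1.35 ± 0.27, the anchoring protein *Akap2* by 0.93 ± 0.08 and the gamma subunit *Gngt2* by 0.86 ± 0.10 on the log2 scale, and *Akap9*, an anchoring protein of the centrosome and Golgi, rose by 0.21 ± 0.06. These falls and the *Akap9* rise were kept in all 18 alternatives. *Grk3* had 17 to 75 counts in a library.

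**Figure D4:**
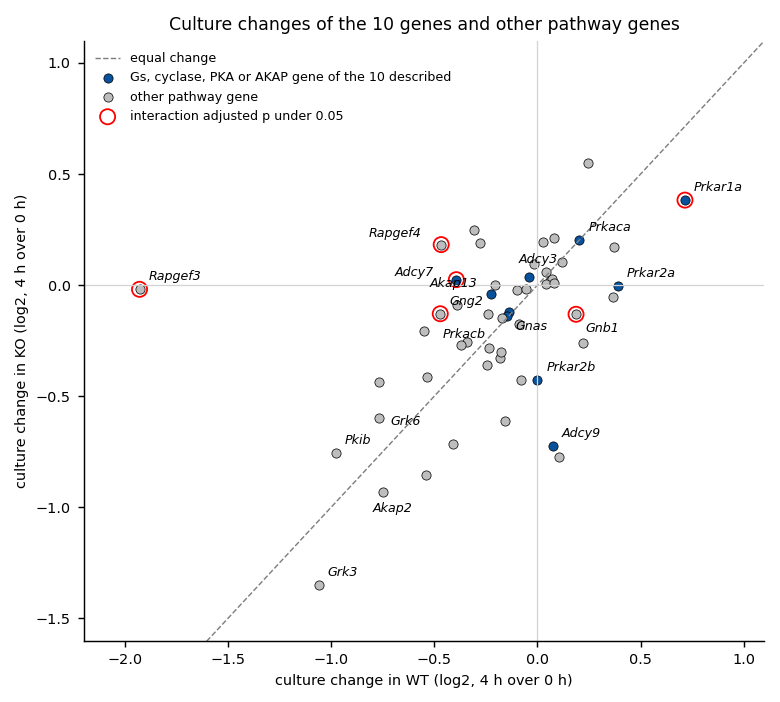
Culture change (log2, 4 h over 0 h) in WT on the x axis and in KO on the y axis for the 10 genes and the 44 other pathway genes tested, with a dashed line of equal change. Circled genes have an interaction adjusted p under 0.05 (*Prkar1a*, *Adcy7*, *Gnb1*, *Gng2*, *Rapgef3* and *Rapgef4*), and most other genes lie near or below 0 on both axes.

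The genes most like *Prkar1a* and *Gnas* were found by Pearson correlation of log2 CPM over the 12 libraries, among 11563 genes. For *Prkar1a* they were *Bcl2l11*, which encodes the pro-apoptotic protein BIM (r = 0.989), *Ppp2r5c*, a regulatory subunit of protein phosphatase 2A (0.985), *Rassf3* (0.982), *Sidt2* (0.978) and *Sfn* (0.978). For *Gnas* they were *Mccc2* (0.954), *Zfp414* (0.945), *Unc119* (0.943), *Ermp1* (0.938) and *Myof* (0.938). The 12 points share 4 groups, so the values mostly describe group means.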

How the data were processed

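The authors deposited raw counts of reads for each gene in 12 libraries, in a table for 0 h (13269 genes) and another for 4 h (13142 genes). The authors amplified RNA with NuGEN Ovation RNA-seq System V2, sequenced single-end 50-base reads, used STAR for alignment to mm10 and HTSeq for counting; versions, annotation and strand setting are not given in the sources used here. No row summed to fewer than 10 counts. The *Rn45s* row took 6.65% to 11.3% of a library, and totals of 6098941 to 11618787 counts set the precision. Replicates differed beyond sampling noise (chi-square per degree of freedom 1.89 to 8.64), and all were kept. The authors give 3 mice per genotype. The labels give a replicate number that recurs at both times and do not say whether a mouse gave both a 0 h and a 4 h library. The p-values measure the spread between these samples.

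Counts were TMM-scaled, filtered (filterByExpr, minimum count 10, minimum total 15) and tested with edgeR 4.0.16 (glmQLFit, glmQLFTest) in R 4.3.3, with Benjamini-Hochberg adjustment over all genes tested. Genotypes were compared within a time (6 libraries). Culture and the interaction were fitted over all 12 libraries and the genes of both tables. Called means an adjusted p under 0.05. Every ± after a log2 fold change is a standard error. With 3 against 3 libraries an exact permutation test cannot go below p = 0.1, so calls rest on the count model. The code was tested on simulated data. DESeq2 1.42.0, other scalings, no filter, other sample sets, a replicate block and each library left out were tried. Lengths and gene positions came from GENCODE M21, and promoter windows from RefSeq (GRCm38.p6).

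The 10 genes, the pathway and marker lists and the tests were chosen with earlier results of these data known. Named beside the 10 genes and *Gpr174* were other pathway genes called between genotypes or in the interaction, the 3 with the largest called culture change in each direction and genotype, and the 5 genes most correlated with *Gnas* and with the gene of lowest p at 4 h (log2 of CPM plus 0.5). *Prkx*, the other cyclases and the overlapping genes were named for their levels. Over all libraries erythroid markers summed to 670.4 to 2448 CPM. Neutrophil markers, with 2 of 5 in a row at 0 h and 4 of 5 at 4 h, summed to 17.9 to 100.9 CPM.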

Additional observations from a re-analysis of the deposited data

Results flagged for a closer look

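Of the 10 genes, *Adcy7* and *Prkar1a* were flagged because the culture change differed between WT and KO in a test of that difference. The WT change minus the KO change was -0.42 for *Adcy7*, which fell in WT, and 0.33 for *Prkar1a*, which rose more in WT (log2, edgeR adjusted p = 0.00458 and 0.0338). The 4 other genes of the pathway flagged in the same way were *Gnb1* (0.32), *Gng2* (-0.34), *Rapgef3* (-1.91) and *Rapgef4* (-0.65), with adjusted p from 0.0197 to 0.0427. Of the 6, the *Adcy7* difference was kept in every alternative tried, and each of the other 5 was lost when some single libraries were left out. Groups of 3 libraries are too small for a test of single outlying samples, so none was made.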

How the results depend on the processing

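Of the 9 called changes of the 10 genes, 133 of 148 alternative values kept the call, 15 lost it and none changed sign. Of 622 alternative values of the 41 changes not called, 8 became called and 53 changed sign. The number of the 10 genes called in KO culture was 2 instead of 1 with library totals (*Prkaca*) and with only the KO libraries in the fit (*Gnas*, adjusted p = 0.0479). Leaving out single libraries, none of the 10 genes was called at 0 h, 2 to 3 at 4 h, 3 to 5 in WT culture, 1 in KO culture and 1 to 2 in the interaction. Of the other pathway genes 0, 2 to 5, 16 to 19, 10 to 17 and 0 to 5 were called in the same order, and of all genes 26 to 161, 776 to 1361, 3240 to 3777, 1919 to 2890 and 497 to 743. Signs that turned belonged to changes near 0. With library totals these were *Prkar2b* at 4 h (-0.0111), *Adcy3* (0.0685) and *Prkar2b* (0.1043) in WT culture, *Prkar2a* (0.0885) and *Akap13* (0.0506) in KO culture, and *Prkaca* (0.0158) and *Prkacb* (0.0128) in the interaction. *Prkar2b* in WT culture turned to 0.0169 with DESeq2, 0.0007 with DESeq2-type size factors and 0.0039 with only the WT libraries in the fit, and *Prkaca* in the interaction to 0.0006 with those size factors. Leaving out single libraries also turned signs of uncalled changes. At 0 h *Prkar2a* ranged from -0.3331 to 0.1221 and *Akap13* from -0.0320 to 0.0152, and at 4 h *Prkar2b* from -0.1620 to 0.3025. In WT culture *Adcy3* ranged from -0.0959 to 0.0077, *Adcy9* from -0.2166 to 0.2694 and *Prkar2b* from -0.2806 to 0.3895. In KO culture *Adcy3* ranged from -0.0667 to 0.1514, *Adcy7* from -0.0169 to 0.0538 and *Prkar2a* from -0.1628 to 0.2036. In the interaction *Gnas* ranged from -0.0444 to 0.0153, *Adcy3* from -0.1921 to 0.0259, *Prkaca* from -0.1122 to 0.0958 and *Prkacb* from -0.0525 to 0.0238. Of 42 called changes of other pathway genes, 24 were kept in every alternative, and none of 722 alternative values changed sign. Those alternatives were added after the data were seen.

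Replicate numbers are shared between groups. Deviations of same-numbered libraries correlated at 0.132, 0.080 and 0.119 in WT (0 h with 4 h, each best with its own number). In KO they correlated at -0.043, 0.145 and 0.152, with replicates 2 and 3 best with their own number. Between genotypes they correlated at -0.100 to 0.073. The numbers were not taken as pairs in the main fits, though a shared mouse is likely within a genotype. In the genotype comparisons the block alternative joined WT and KO libraries of the same number, which are from different mice. With the replicate number as a block (within each genotype in the culture and interaction fits) all 9 calls of the 10 genes were kept, and 0, 2, 4, 1 and 2 of the 10 genes were called and 138, 1062, 3979, 2861 and 842 of all genes, in the order above. The signs of *Prkar2b* in WT culture (0.0228), *Prkar2a* in KO culture (0.0178) and *Prkaca* in the interaction (0.0037) turned. Depth limited *Adcy9* and *Prkar2b*, with 4 to 33 counts a library.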

Other observations

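The promoter search that marked *Prkar1a* was extended to all genes as a description, with no test. The palindrome TGACGTCA was found in a RefSeq window of 549 genes. Of these, 311 were tested in WT culture, where 19.6% were raised and 8.36% lowered, against 15.1% and 18.0% of all genes tested. In KO culture 9.97% were raised and 4.82% lowered, against 10.3% and 13.0%. At 4 h, of 304 tested, 6.25% had the higher level in WT and 2.30% in KO, against 5.22% and 5.67%. For the interaction, of 311 tested, 1.93% had the higher change in WT and 1.29% in KO, both below the 2.45% and 3.94% of all genes. At 0 h each genotype had the higher level for 0.651%. Windows with this motif may differ from others in base composition and level, which were not compared.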
